A study of Mus musculus with 6 samples.

Results

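The assays of miR-143, miR-145, miR-199a, miR-199b and miR-214 were examined in prefrontal cortex of male mice aged 5 months, 3 BTBR and 3 C57BL/6J. They were chosen by name, ignoring case, species prefix and the mark of the hairpin arm, which gave 10 of the 750 microRNA (miRNA) assays of a TaqMan OpenArray rodent panel. There were 2 assays each of miR-143, miR-145, miR-199a and one of miR-199b, and miR-214 had 3. The BTBR mice carry the genotype label BTBR T+ Itpr3tf/J, an inbred strain with low sociability that serves as a mouse model for autism research, although their strain background field reads C57BL/6J. The C57BL/6J mice are labelled wild type and served as controls. No mouse was given a drug. The labels state 3 cortices per strain, so the samples were taken as separate animals. The comparison asked which miRNAs differ in level between the strains.

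These miRNAs come from a few transcripts. miR-143 and miR-145 are cut from one primary transcript and are best known from vascular smooth muscle cells and pericytes, the mural cells that wrap blood vessels, where they favour the contractile state. miR-199a-2 and miR-214 are cut from Dnm3os, a long non-coding RNA from the opposite strand of the dynamin gene Dnm3. They are known from mesenchymal cells such as fibroblasts. The other miR-199 genes lie within the dynamin genes Dnm2 (Mir199a-1) and Dnm1 (Mir199b). In brain such cells are a small minority beside neurons and glia, and whole tissue does not show which cells gave the signal.

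The mature sequences of miR-199 and miR-214 are shown because they decide what an assay can tell apart. They are from RefSeq (mouse GRCm38.p6), 5′ to 3′, with the seed, bases 2 to 8, in capitals. Sequences of the other transcript are not shown.
mmu-miR-199a-3p: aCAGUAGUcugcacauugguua
mmu-miR-199b-3p: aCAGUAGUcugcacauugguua
mmu-miR-214-3p: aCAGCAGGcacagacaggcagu
mmu-miR-199a-5p: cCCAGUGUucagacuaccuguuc
mmu-miR-214-5p: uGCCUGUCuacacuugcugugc
The 3p arms of miR-199a and miR-199b had 22 of 22 bases in common, so an assay of that sequence reads the products of all 3 miR-199 genes together. The seed of miR-214-3p differed from that of miR-199a-3p by the substitutions U5C and U8G, counted from the 5′ end of the mature miRNA. The names of the assays hsa-miR-199a, mmu-miR-199b, hsa-miR-214 and mmu-miR-214 give no arm, so which of these sequences each reads is not known here. Among 1738 mature mouse sequences, 1 other miRNA, mmu-miR-761, shared the seed of miR-214-3p, and its assay on the panel gave no reading in the 6 mice. No other of these 1738 sequences shared the seeds of the 5p arms. miR-199b-5p was not among them, so its seed was not compared.

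The Mir199a-2 and Mir214 hairpins lie on the plus strand of mouse chromosome 1, at chr1:162217814-162217923 and chr1:162223368-162223477 (GRCm38.p6), with 5444 bases between them. Both lie within Dnm3os and Dnm3. In the hairpins, printed below as RNA, capitals mark the 5p and 3p arms, the 2 products that separate assays of the panel can read.
Mir199a-2: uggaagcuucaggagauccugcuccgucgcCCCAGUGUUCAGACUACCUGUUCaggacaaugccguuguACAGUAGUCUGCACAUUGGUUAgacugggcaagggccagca
Mir214: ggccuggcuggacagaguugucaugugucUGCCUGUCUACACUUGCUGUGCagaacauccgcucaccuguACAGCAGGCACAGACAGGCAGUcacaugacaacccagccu

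The data are cycle thresholds, the number of PCR cycles an assay needs before its fluorescence passes a fixed level. A higher threshold stands for less RNA, and 1 cycle was taken as a 2-fold difference. The raw table writes 40 where no threshold was reached. Each assay was run once per mouse, in pool A or pool B, as the suffix of its identifier gives it. Readings of at least 10 cycles numbered 347 to 404 of 750 in BTBR and 289 to 305 in C57BL/6J. Most of the difference lay in pool A, with 212 to 244 readings in BTBR and 175 to 180 in C57BL/6J, while pool B had 114 to 161 and 114 to 129. BTBR replicate 3 stood apart from its strain: over 237 assays read in all mice its raw thresholds had Pearson correlations of 0.918 and 0.911 with the other BTBR mice and of 0.937, 0.964 and 0.957 with the C57BL/6J mice. Results are therefore also given without it. Neuron markers (miR-124, miR-128, miR-9, miR-138 and miR-129) were matched by name, which left out the assay hsa-miR-128a. Of the 8 assays matched, each was read in at least 1 mouse of this cortex. The 4 read in all mice averaged -3.46 to -3.25 cycles relative to the mean of those 237 assays in BTBR and -3.11 to -1.79 cycles in C57BL/6J, where negative means earlier.

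Of the 10 assays, 3 were read in all 6 mice. These were hsa-miR-143 (000466), hsa-miR-199a-3p (002304) and hsa-miR-214 (000517). A further assay, hsa-miR-145 (002278), was read in 5 mice, and mmu-miR-199b (001131) was read once, at 30.08 cycles in BTBR replicate 2. The assays hsa-miR-199a (000498), mmu-miR-145# (002514) and hsa-miR-214# (002293), where # marks the less abundant strand, were read in 0 of 6. On the whole panel 288 of 750 assays were read in none. The remaining 2 assays, hsa-miR-143 (002249) and mmu-miR-214 (002306), were read in BTBR and in no C57BL/6J mouse. Of all assays, 82 of 750 (10.9%) were read in at least 2 BTBR mice and no C57BL/6J mouse, against 11 of 750 the other way. Both members with that pattern were in pool A, where 57 of 377 assays showed it, against 25 of 373 in pool B. Their pool and the lower number of pool A readings in C57BL/6J go with this pattern, and the part of either in it was not tested.

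**Figure D1:**
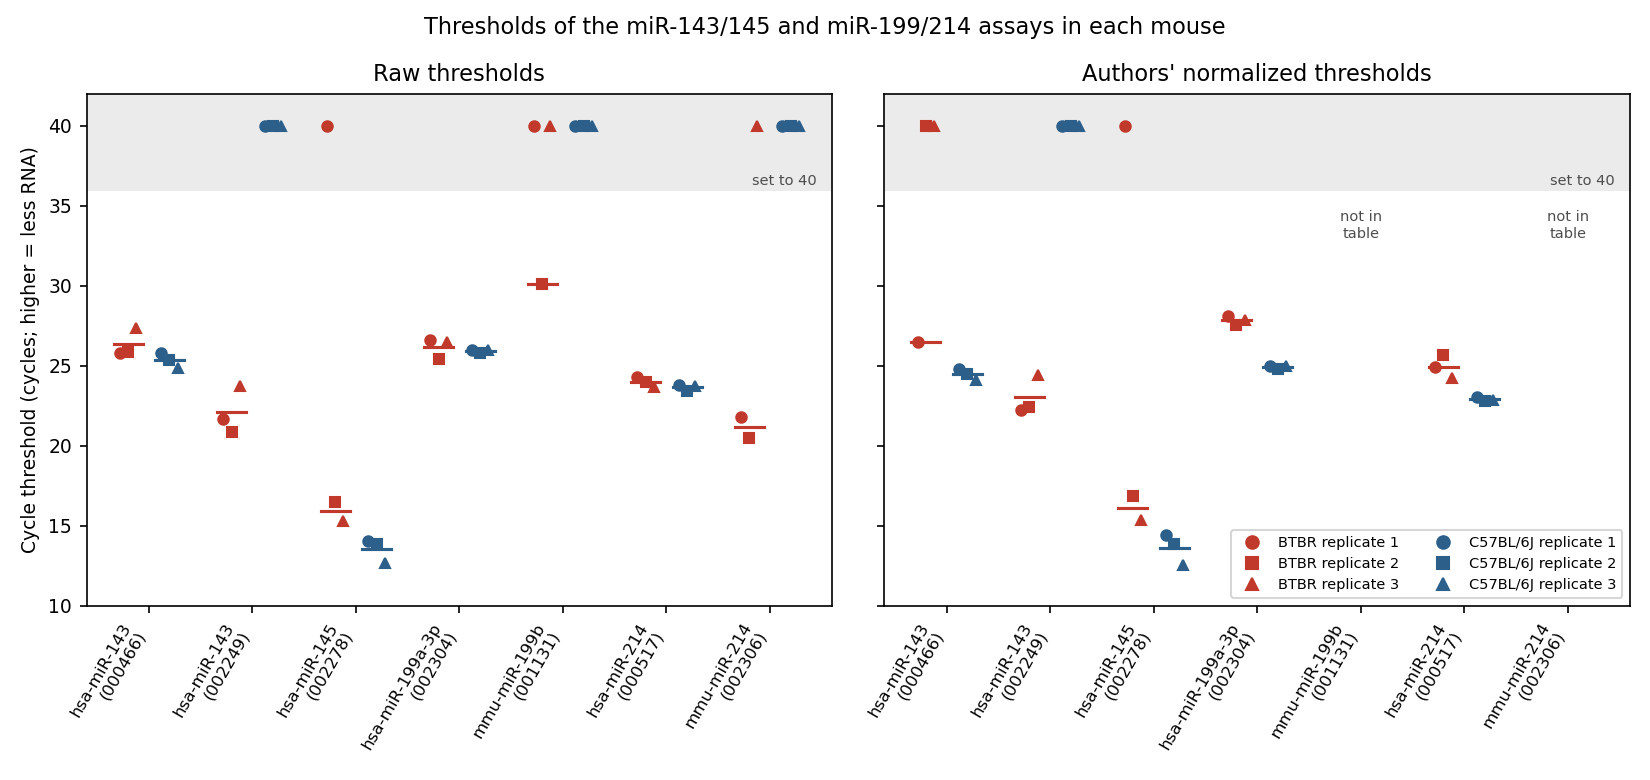
Cycle thresholds (y axis, cycles) of the 7 assays with any reading, in each BTBR mouse (red, left) and each C57BL/6J mouse (blue, right). Raw values are on the left panel and the authors' normalized values on the right; short lines are means of the readings, and points in the grey band stand at 40. On the right panel 2 BTBR values of hsa-miR-143 (000466) stand at 40 although they were read at 25.83 and 27.35 cycles on the left.

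The assay of miR-145 had the earliest thresholds of the group. It read 16.50 and 15.27 cycles in BTBR replicates 2 and 3 and was undetermined in replicate 1, against 14.01, 13.87 and 12.66 cycles in C57BL/6J. Both BTBR readings were later than every C57BL/6J reading, as in 49 of 270 assays (18.1%) with at least 2 raw readings per strain. In the order of all readings it was number 45 of 404 and 24 of 347 in these BTBR mice, against 15 of 305, 12 of 301 and 5 of 289 in C57BL/6J. The BTBR mouse in which it was undetermined gave 358 readings on the panel.

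The strain difference of miR-145 was tested on 2 scales, each fitted across the whole panel with limma, with Benjamini-Hochberg adjustment over all assays tested. The first scale was the authors' quantile-normalized thresholds with 40 as missing. The second was the raw thresholds minus each mouse's mean over the 237 assays read in all mice, called the global mean scale. Changes are BTBR minus C57BL/6J in log2 units of miRNA, so negative means less in BTBR. miR-145 changed by -2.47 on the authors' values (standard error 0.77, limma adjusted p = 0.0596). It changed by -2.83 on the global mean scale (standard error 0.70, 95% interval -4.62 to -1.03, adjusted p = 0.135), and passed 0.05 on neither. Both values rest on 2 BTBR readings. On the global mean scale it was number 3 of 270 assays counted from the lowest change. Without BTBR replicate 2 or 3 it had 1 BTBR reading and was not fitted.

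miR-143, cut from the transcript of miR-145, was measured by 2 assays that behaved differently. The pool B assay, hsa-miR-143 (000466), read 25.78, 25.83 and 27.35 cycles in BTBR and 25.81, 25.33 and 24.87 cycles in C57BL/6J. Its raw values overlapped by a margin of hundredths of a cycle, with BTBR replicate 3 the latest. Relative to each mouse's global mean it came 3.81, 4.37 and 5.23 cycles late in BTBR and 3.20, 3.10 and 2.97 cycles late in C57BL/6J, and there the strains did not overlap. Of the 237 assays read in all mice, 55 (23.2%) were later in every BTBR mouse than in every C57BL/6J mouse on that scale. The change was -1.38 (standard error 0.44, 95% interval -2.46 to -0.30, limma adjusted p = 0.144), and -0.999 without BTBR replicate 3 (adjusted p = 0.0816).

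The pool A assay of the same miRNA, hsa-miR-143 (002249), read 21.68, 20.83 and 23.72 cycles in BTBR and was undetermined in all 3 C57BL/6J mice. Its threshold minus that of the pool B assay was -4.11, -4.99 and -3.63 cycles, so it came earlier in each BTBR mouse. The C57BL/6J mice, in which it gave no signal, were those in which the other assay of miR-143 came earlier relative to the panel. With no C57BL/6J reading it had no fitted change, unless 40 was entered as a level.

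The authors' normalized table sets these assays apart further. For hsa-miR-143 (000466) it holds 26.49 cycles in BTBR replicate 1 and 40 in BTBR replicates 2 and 3, against 24.79, 24.46 and 24.10 cycles in C57BL/6J. The 2 values at 40 are late readings: when the normalization was rebuilt, both stood at 30.03 cycles, past the highest kept value of 29.19. With 1 BTBR value the assay did not meet the minimum of 2 readings per strain. With at least 1 its change was -2.04 (limma adjusted p = 0.0631). With the late readings kept, its change was -4.40 (standard error 1.05, limma adjusted p = 0.0361), in a fit where 32.4% of assays passed as lower in BTBR. The authors' deposited table, in which 40 entered the means, gives this assay a BTBR to C57BL/6J ratio of 0.000473 (adjusted p = 0.255). For the other miR-143 assay the authors' deposited table gives a ratio of 129716 (adjusted p = 0.0184). The authors' deposited table thus puts 2 assays of one miRNA at opposite ends, and both ratios contain values of 40. For miR-145 the ratio in the authors' deposited table is 0.000718 (adjusted p = 0.447), with the undetermined mouse entered as 40.

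miR-199a-3p read 26.61, 25.40 and 26.48 cycles in BTBR and 25.95, 25.75 and 25.95 cycles in C57BL/6J. The raw values overlapped, since BTBR replicate 2 was the earliest of the 6 mice, and the C57BL/6J mice lay within a narrow range. On the authors' values the same assay stood at 28.09, 27.56 and 27.84 cycles in BTBR and 24.96, 24.79 and 24.96 cycles in C57BL/6J. Normalization moved it later in BTBR and earlier in C57BL/6J. There it fell by 2.92 on the log2 scale (standard error 0.28, 95% interval -3.61 to -2.24, limma adjusted p = 0.0118), lower in 3 of 3 BTBR mice. Without BTBR replicate 3 the change was -2.92 (adjusted p = 0.00828). The call was lost without BTBR replicate 1 (adjusted p = 0.0604) and without C57BL/6J replicate 3 (adjusted p = 0.0657), where 0 assays of the panel passed. Centring these values on each mouse's median also ended it (-1.75, limma adjusted p = 0.0917).

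Relative to the global mean miR-199a-3p came 4.63, 3.95 and 4.36 cycles late in BTBR and 3.33, 3.52 and 4.06 cycles late in C57BL/6J. C57BL/6J replicate 3 lay among the BTBR mice. The change was -0.67 (standard error 0.37, 95% interval -1.58 to 0.23, limma adjusted p = 0.283) and -0.65 without BTBR replicate 3 (adjusted p = 0.276). It was number 100 of 270 from the lowest there and number 10 of 231 on the authors' values.

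miR-214, cut from the same transcript, read 24.26, 23.95 and 23.67 cycles in BTBR and 23.81, 23.39 and 23.71 cycles in C57BL/6J with its pool B assay, hsa-miR-214 (000517). The raw values of the strains overlapped. The authors' values were 24.92, 25.65 and 24.22 cycles in BTBR and 23.01, 22.80 and 22.83 cycles in C57BL/6J, which did not overlap. Of the authors' values, 109 of 189 assays with 6 values (57.7%) were later in every BTBR mouse, miR-199a-3p among them. There miR-214 fell by 2.05 on the log2 scale (standard error 0.42, limma adjusted p = 0.0298), and its change was -2.41 without BTBR replicate 3 (adjusted p = 0.0112). Centred on each mouse's median the change was -0.88 (adjusted p = 0.143), and with the replicate number as a block it kept its size at an adjusted p of 0.0503, so both ended the call. It was also lost without BTBR replicate 1 (0.0727) or 2 (0.0544) and without C57BL/6J replicate 2 (0.0759) or 3 (0.0685), each a limma adjusted p. Relative to the global mean it came 2.28, 2.49 and 1.55 cycles late in BTBR and 1.19, 1.16 and 1.82 cycles late in C57BL/6J. The strains overlapped through BTBR replicate 3 and C57BL/6J replicate 3, and the change was -0.72 (standard error 0.40, 95% interval -1.71 to 0.27, limma adjusted p = 0.285). Without BTBR replicate 3 it was -0.998 (adjusted p = 0.0976).

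The pool A assay, mmu-miR-214 (002306), read 21.79 and 20.49 cycles in BTBR replicates 1 and 2 and was undetermined in BTBR replicate 3 and in all C57BL/6J mice. In these mice its threshold minus that of the pool B assay was -2.47 and -3.45 cycles, again earlier. BTBR replicate 3, which resembled C57BL/6J over the panel, was here undetermined like C57BL/6J. It was also the BTBR mouse in which the pool A assay of miR-143 came latest.

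Across the group, 2 of 10 assays passed as lower in BTBR on the authors' values, 3 having been fitted, and 0 passed as higher. The whole panel had 82 of 231 assays (35.5%) passing as lower there. With global mean scaling 4 were fitted and 0 passed, as over the panel, where 0 of 270 assays (0%) passed as lower, 0 as higher, and 71 had an unadjusted p under 0.05. The median change of the fitted members was -2.47 against -1.13 for the panel on the authors' values, and -1.05 against -0.40 on the global mean scale. All fitted members had negative changes on both scales, as had 81.8% and 61.1% of the assays fitted. Relative to the panel median, the change on the authors' values was -1.80 for miR-199a-3p, -1.35 for miR-145 and -0.93 for miR-214. In the global mean fit that distance was -2.42 for miR-145, -0.97 for miR-143, -0.31 for miR-214 and -0.27 for miR-199a-3p. The order of the members thus differed between the scales: of the 3 members fitted on the authors' values miR-199a-3p was lowest, and of the 4 on the global mean scale miR-145. miR-143 (000466) is missing from the first order, and with late readings kept it lay at -4.40, below miR-199a-3p. In bulk tissue, fewer cells of a type and less RNA per cell cannot be told apart.

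**Figure D2:**
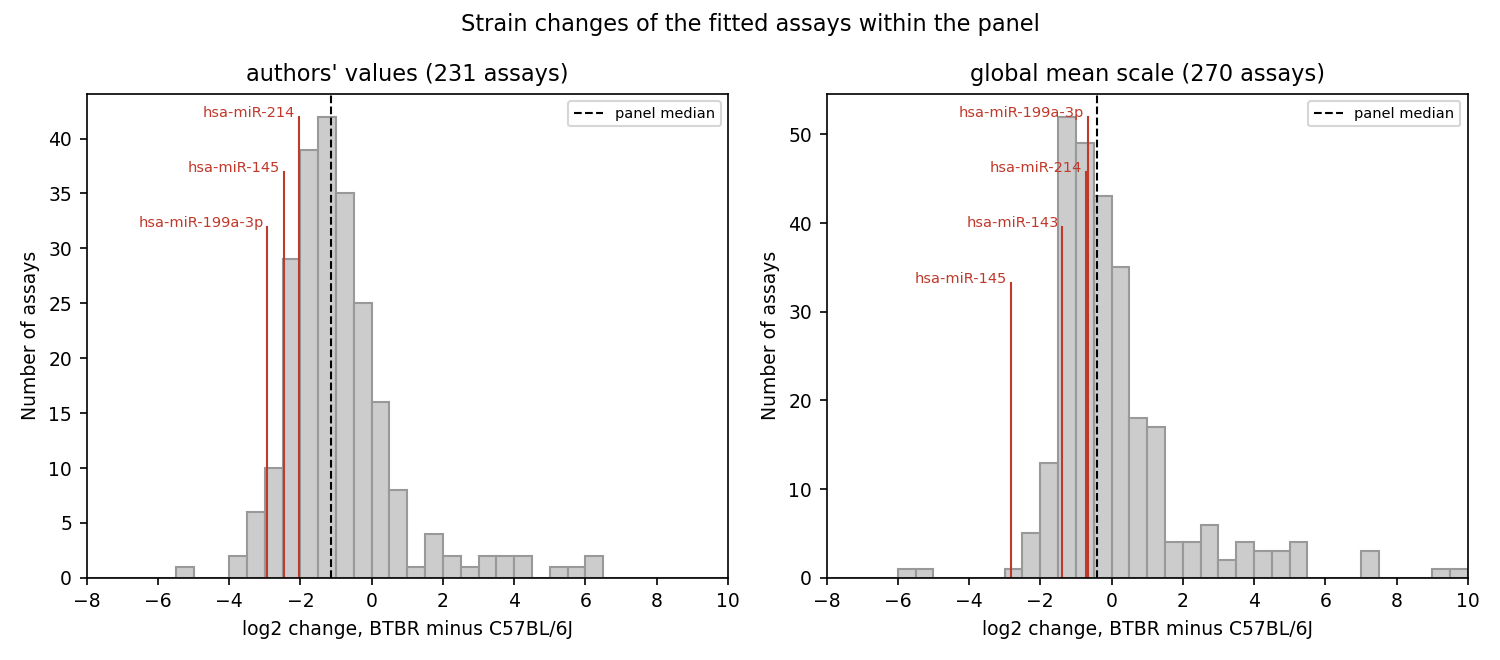
Histograms of the log2 change, BTBR minus C57BL/6J (x axis), of all fitted assays (y axis, number of assays), on the authors' values and on the global mean scale. Red lines mark the members and the dashed line the panel median, -1.13 on the left and -0.40 on the right; miR-145 lies at -1.35 from the median on the left and -2.42 on the right, and miR-199a-3p at -1.80 and -0.27.

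Other scalings of the raw thresholds kept the sign of all 4 members, but the size followed the scaling. With no scaling the changes were -2.37 for miR-145, -0.98 for miR-143, -0.32 for miR-214 and -0.28 for miR-199a-3p, and the panel median was -0.01. Scaled to the mean of detected U6 rRNA spots they were -3.45, -2.18, -1.52 and -1.47 in the same order of members, with a panel median of -1.20. Scaled to the other 4 endogenous controls they were -3.56, -2.10, -1.44 and -1.39, with a panel median of -1.14. None of these passed. Each of these scalings moves all assays of a mouse by one amount, so the distances between the members read in all mice are fixed by the readings and are the same under each.

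**Figure D3:**
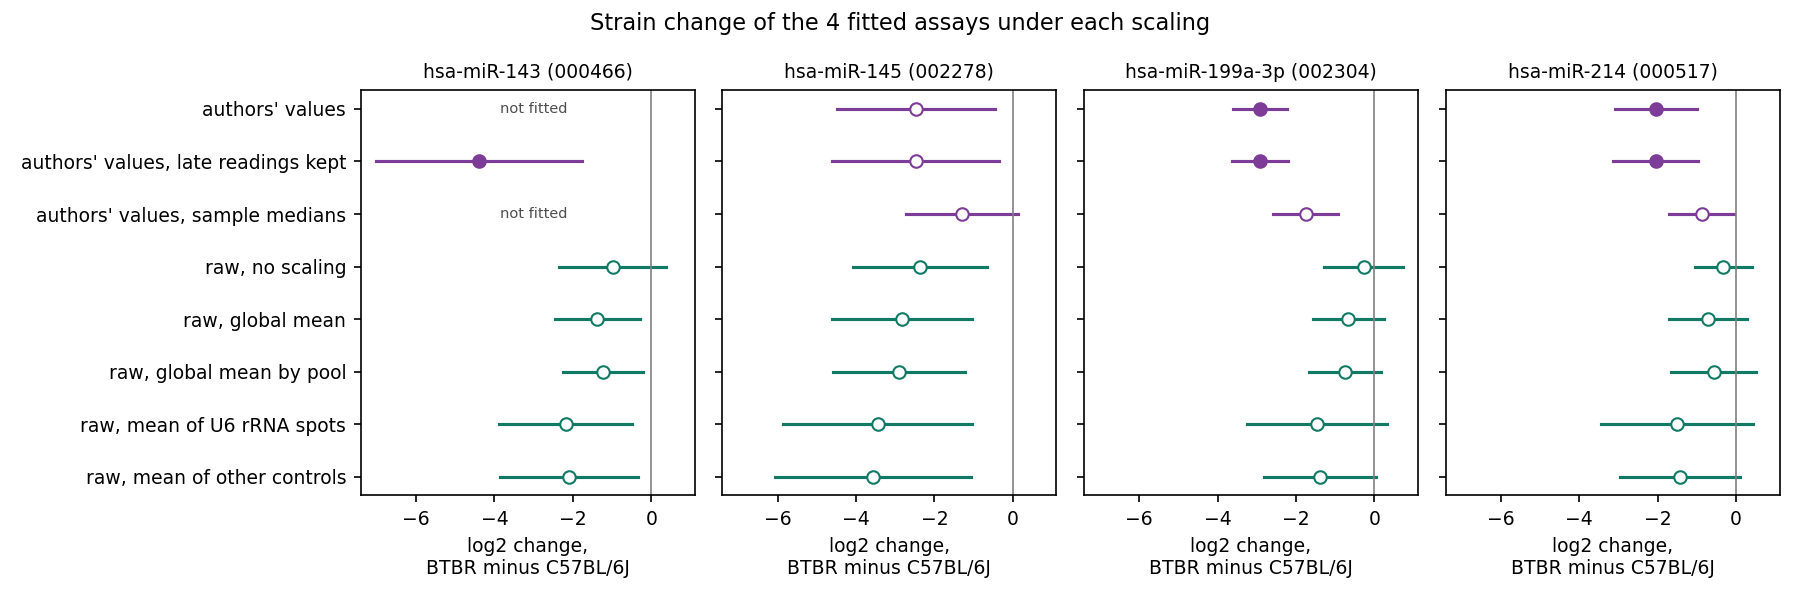
Log2 change, BTBR minus C57BL/6J (x axis), of the 4 fitted assays with 95% limma intervals, under 3 settings on the authors' values (purple) and 5 on raw thresholds (green). Filled points passed an adjusted p of 0.05; all points lie below 0, and filled points are found on the authors' values alone.

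Mates from one transcript were next compared within each mouse, because the difference between 2 thresholds of a sample does not depend on how whole samples are scaled. An assay of the miR-199a-3p sequence also reads products of the other miR-199 genes. The pair of miR-214 and miR-199a-3p is therefore not limited to the Dnm3os transcript. The miR-214 (000517) threshold minus the miR-199a-3p threshold was -2.35, -1.45 and -2.81 cycles in BTBR and -2.14, -2.37 and -2.24 cycles in C57BL/6J. The means were -2.20 ± 0.689 in BTBR and -2.25 ± 0.114 in C57BL/6J (SD, n = 3 each), a difference of 0.045 cycles that was smaller than either spread (exact permutation test, two-sided, p = 0.9, where the smallest possible p is 0.1). The BTBR values scattered to both sides of the C57BL/6J values. On the authors' values the same difference of means was -0.87 cycles (exact permutation p = 0.4), and it was -0.18 cycles when each assay was first centred on its own pool (exact p = 0.7). Without BTBR replicate 3 it was 0.35 cycles (exact permutation p = 0.6). With that mouse left out the smallest possible p is higher than 0.1.

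The miR-145 threshold minus the miR-143 (000466) threshold was -9.33 and -12.08 cycles in BTBR replicates 2 and 3 and -11.81, -11.46 and -12.20 cycles in C57BL/6J. BTBR replicate 3 lay within the C57BL/6J values, and replicate 2 stood above all of them. With 2 BTBR values no test was made. Gaps between assays depend on each assay's efficiency, so they do not measure how much of one miRNA there is per copy of the other.

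Both pairs join a pool A assay with a pool B assay. Pairs within a pool, added after seeing the data, were of different transcripts. In pool A, miR-145 minus miR-199a-3p was -8.91 and -11.21 cycles in BTBR replicates 2 and 3, and -11.94, -11.88 and -13.29 cycles in C57BL/6J. In pool B, miR-143 minus miR-214 was 1.52, 1.88 and 3.68 cycles in BTBR and 2.01, 1.94 and 1.15 cycles in C57BL/6J, where only BTBR replicate 3 lay outside the C57BL/6J range upward and the strains overlapped.

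**Figure D4:**
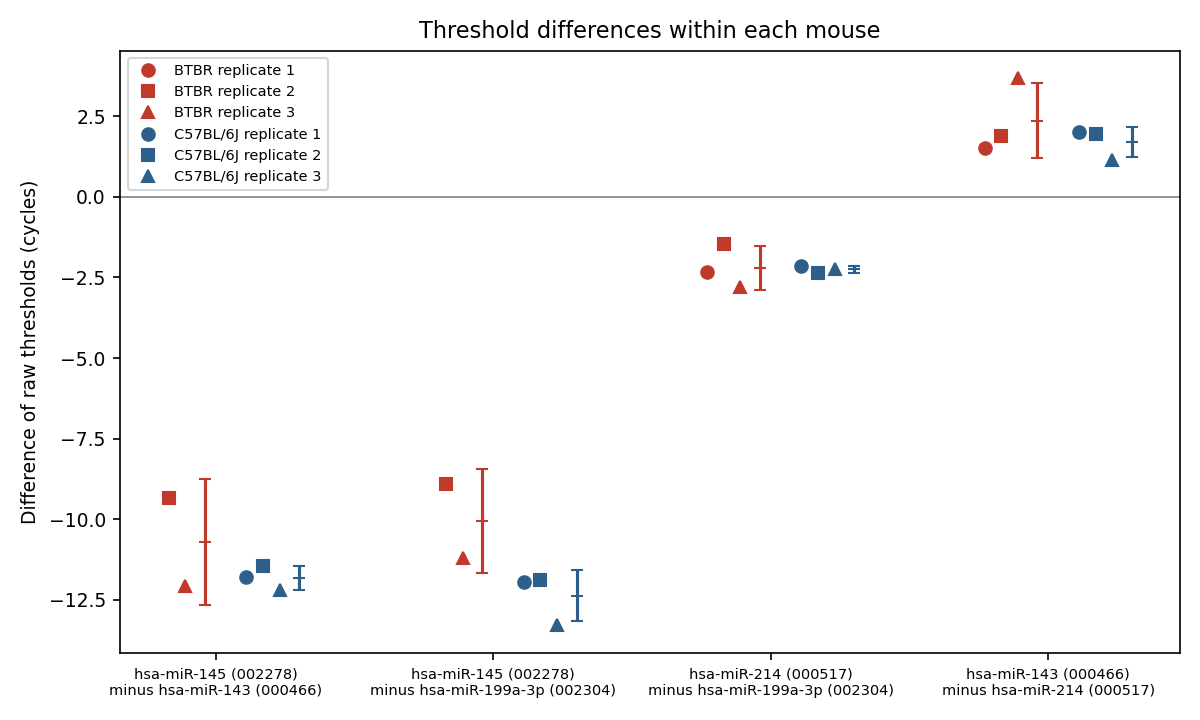
Difference between the raw thresholds of 2 assays in the same mouse (y axis, cycles) for 4 pairs, with BTBR in red on the left and C57BL/6J in blue on the right; bars are mean ± SD over the mice in which both were read. The miR-214 and miR-199a-3p pair has means of -2.20 and -2.25 cycles, and BTBR replicate 1 is missing wherever miR-145 takes part.

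Other miRNAs of contractile and connective tissue gave a mixed picture. Of 16 assays of miR-1, miR-133a, miR-133b, miR-206, miR-21, miR-22, miR-140, miR-152, miR-195 and miR-497, 8 were fitted on the authors' values. hsa-miR-1, a muscle miRNA, fell (log2 change -2.50, standard error 0.75, limma adjusted p = 0.0465), as did hsa-miR-152 (-1.58, standard error 0.49, adjusted p = 0.0497). mmu-miR-140, known from cartilage, rose (2.71, standard error 0.73, adjusted p = 0.036). Another miR-140 assay of the list, hsa-miR-140-3p, did not rise with it there (-0.90, limma adjusted p = 0.109), and changed by 0.14 on the global mean scale. The list's median was -1.85, and 5 did not pass. On the global mean scale 0 of 8 passed and the median was -0.93. The second assay of miR-1, rno-miR-1, had changes of -2.54 on the authors' values and -1.37 on the global mean scale, close to those of hsa-miR-1 (-2.50 and -1.30).

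Endothelial miRNAs were set beside them because mural cells lie on the same vessels. Of 11 assays of miR-126, miR-10a, miR-10b, miR-139, miR-221 and miR-222, 5 were fitted and 0 passed on either scale, with medians of 0.11 on the authors' values and 0.56 on the global mean scale. The 5 did not move one way. hsa-miR-126, best known from endothelium, had a change of 0.58 on the authors' values and of 0.86 with global mean scaling. The same pair of values was 0.11 and 0.56 for hsa-miR-221. hsa-miR-139-5p stood at 0.58 and 0.29, mmu-miR-139-3p at -0.18 and 1.19, and hsa-miR-222 at -0.36 and -1.17. The difference between this list and the members was not tested. Among blood cell miRNAs, 0 of 4 fitted assays passed on either scale, with medians of -0.46 and -0.27. The choroid plexus and ependyma list had 0 of 3 passing on the authors' values and 0 of 5 on the global mean scale, with medians of -0.30 and 0.35. In the neuron list 1 of 5 fell on the authors' values (hsa-miR-129, -1.67), with a median of -0.09, and 0 of 5 passed on the global mean scale, with a median of -0.55. These values leave out hsa-miR-128a, which changed by -0.60 and -1.18 and passed on neither scale. In the oligodendrocyte list 1 of 2 fell on the authors' values (hsa-miR-338-3p, -3.08), and 0 of 3 passed on the global mean scale. Its medians were -2.72 and -1.61, against the members' -2.47 and -1.05. The name match left out hsa-miR-219-2-3p, a fitted assay that changed less, by -1.54 and -0.34. With so few assays the medians do not settle which list shifted more. Changes as large as those of most members were still not particular to them: hsa-miR-338-3p stood at -3.08 and -1.61. Over the panel 35.5% of assays passed as lower on the authors' values.

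As levels, the 3 members read in every mouse came on average 3.57 to 3.71 cycles after the global mean in BTBR and 2.57 to 2.95 cycles after it in C57BL/6J. For the 5 endothelial assays read in every mouse the averages were -4.97 to -4.34 cycles relative to it in BTBR and -4.44 to -3.86 cycles in C57BL/6J, thus early readings. Those of the other contractile and connective tissue miRNAs overlapped, with 0.134 to 1.30 cycles after it in BTBR and 0.206 to 0.95 cycles after it in C57BL/6J. The member miR-145, read in 5 mice, is in none of these averages. It stood at -4.96 and -6.85 cycles relative to the global mean in BTBR replicates 2 and 3, and at -8.61, -8.36 and -9.23 in C57BL/6J. Gaps between assays depend on each assay's efficiency, so these values do not rank the lists by amount of RNA. The part of a different share of vessel cells between samples in these values was not tested.

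For the 3 members read in all mice, the assays with the nearest pattern over the 6 mice were sought on the global mean scale. The measure was the root mean square (RMS) difference between the deviations of 2 assays from their own means, over the 237 assays read in all mice, so miR-145, read in 5, took no part. Nearest to miR-214 were hsa-miR-9# and rno-miR-125b#, at 0.102 and 0.147 cycles, both in pool B with it. miR-199a-3p lay at 0.404 cycles from miR-214, against an RMS of 0.507 cycles for the pattern of miR-214 itself. Nearest to miR-199a-3p, a pool A assay, were mmu-miR-592 and mmu-miR-345 of pool B, at 0.179 and 0.264 cycles. Nearest to miR-143 (000466) were rno-miR-148b-5p and mmu-miR-770-5p, of pool B like it, at 0.535 and 0.537 cycles. With 6 mice and 237 assays, near patterns of unrelated assays occur, and the measure says nothing of shared control.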

How the data were processed

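Prefrontal cortex RNA of 6 mice was column-purified, and 100 ng per sample was reverse-transcribed, pre-amplified and run on the OpenArray panel, per the labels' protocols. The sources used here do not give the instrument settings. Cycle thresholds were deposited raw and, per the file headers, quantile-normalized by the authors. Their other steps were rebuilt from the tables: readings under 10 set to 40, assays read in at least 3 mice kept (340), common quantiles with 40 entering as a value, and values above 29.19 set to 40. This gave the 306 deposited assays with a largest difference of 3.33e-09 cycles. The authors' deposited table holds a ratio (fold) of BTBR to C57BL/6J, a test statistic (a score) and p-values, per the file headers, and the sources used here do not name the test.

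Thresholds were multiplied by -1 and tested with limma 3.58.1 (R 4.3.3), strain as the single term, for assays with at least 2 readings per strain (231 on the authors' values, 270 on raw thresholds), Benjamini-Hochberg adjusted over all assays. Raw values of 40 or under 10 were missing. Differences within a mouse were compared with exact permutation tests (scipy 1.17.1). The fit was tested on simulated data. Thresholds have no counting depth: 1 PCR per assay and 3 mice per strain limit the precision. The labels do not tell which mice shared an array, and the part of arrays was not tested. Members, lists and rules were chosen with earlier results of these data known. Every member was named, with the 2 nearest assays of each member read in all mice and the list assays that passed, up to 4 per list. miR-126, rno-miR-1, hsa-miR-140-3p, hsa-miR-128a and hsa-miR-219-2-3p were named after their values were seen.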

Additional observations from a re-analysis of the deposited data

How the results depend on the processing

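The strain changes of the 4 fitted members kept a negative sign under every alternative run that could fit them. On the authors' values 85 assays passed. That count was 32 with the replicate block, 2 with values centred on sample medians and 0 to 101 without one mouse, 0 being reached without BTBR replicate 1 or C57BL/6J replicate 3. On the global mean scale, where 0 passed, it was 1 with U6 rRNA spot means, 32 with 40 kept as a value and 0 to 57 without one mouse, 57 being without BTBR replicate 3 (23 higher, 34 lower). miR-199a-3p ranged from -3.06 to -1.75 on the authors' values and lost its call with sample medians (limma adjusted p = 0.0917). miR-214 ranged from -2.41 to -0.88 and lost its call there (0.143). On the global mean scale the deviations of same-numbered mice correlated at 0.017, 0.411 and -0.098 over 237 assays. Those of differently numbered mice ran from -0.509 to 0.332. Whether a number marks a shared array or day cannot be decided from these values, and the labels do not give it. With the replicate block miR-214 stood at an adjusted p of 0.0503 and miR-145 at 0.045 (change -2.88). The difference between miR-214 and miR-199a-3p changed sign with the setting: 0.045 cycles as reported, -0.18 centred by pool, -0.87 on the authors' values, and -0.33 to 0.35 without one mouse. With the replicate block it was 0.045. With 40 kept as a value miR-145 stood at -10.44 on the authors' values and -10.80 on the global mean scale, since its undetermined mouse then counts as a level. For the assays undetermined in all C57BL/6J mice that setting gave hsa-miR-143 (002249) 16.99 and 17.53 on the same scales and mmu-miR-214 (002306) 12.18 on the global mean scale. For mmu-miR-199b (001131) it gave 2.91 there. Why these values moved was not tested beyond the settings' own construction.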

Other observations

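The split between 2 assays of one miRNA was not limited to miR-143 and miR-214. Of 61 miRNA names with 2 assays, 6 had one assay read in all mice and the other read in at least 2 BTBR mice and no C57BL/6J mouse: miR-143, miR-190b, miR-214, miR-381, miR-487b and miR-551b. For miR-190b the assay read in all mice averaged 30.23 cycles in BTBR and 28.46 in C57BL/6J, while the other read 20.13 cycles in BTBR and nothing in C57BL/6J. The assay that went unread in C57BL/6J was in pool A for all of these but miR-487b. Of the remaining names, 8 had one assay read in all mice and the other in none, a split without a strain pattern. Another 8 had both assays read in all mice, with mean gaps of 0.689 to 6.85 cycles between them. For miR-143, miR-190b, miR-214, miR-381 and miR-487b, the assay read in all mice averaged a later raw threshold in BTBR than in C57BL/6J, and for miR-551b an earlier one. These pairs were looked up after the values of miR-143 were seen, and no test was made.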
